A study of Mus musculus with 6 samples.

Results

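Transcripts that mark T cells and natural killer (NK) cells were followed in RNA from sorted cardiac macrophages of wild-type mice (WT) and of mice without legumain (Lgmn KO). The set holds 36 genes, picked by gene symbol out of the 34745 genes of the deposited table. It covers the T cell receptor with its CD3 subunits (6 genes), coreceptors with adhesion and costimulatory receptors (10), signalling proteins near the receptor (6), transcription factors (4), cytotoxic granule genes (5), and NK receptors with the beta chain of the receptors for IL-2 and IL-15 (5). All mice were C57BL/6 and 8 weeks old, the genotype labels read LGMN-KO and WT, and the series places every sample after myocardial infarction, although the labels name both coronary ligation and a sham operation without assigning them to animals. The labels do not say which part of Lgmn was removed, in which cells, or whether the 6 libraries are 6 animals. The spread that every p-value rests on is therefore that between libraries, and it may be technical. Hearts were digested with enzymes, and the cells were stained for CD45 (a leukocyte protein), CD64 and CD11b (myeloid proteins) and for dead cells. There were 3 Lgmn KO libraries (replicates 1, 2 and 4) and 3 WT libraries (replicates 1, 2 and 3), and where 3 values are given for a group they stand in that order.

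T cells recognise antigen through a receptor whose alpha and beta chains bind peptide on MHC molecules and whose CD3 subunits pass the signal into the cell, where the kinase Lck phosphorylates CD3 and the kinase Zap70 then phosphorylates the adaptor Lat. NK cells lack that receptor and use lectin-like receptors, and they share perforin and granzymes, which kill target cells, with cytotoxic T cells. Lymphocytes enter the heart after infarction in small numbers beside the far more abundant myeloid cells. In bulk RNA fewer cells of a type and less RNA per cell cannot be told apart.

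The libraries held between 19546253 and 24086976 counts. Legumain itself, the targeted lysosomal protease, was at 83.5 ± 4.91 CPM (counts relative to the TMM-scaled library total) in Lgmn KO, against 2390 ± 263 in WT (mean ± SD, n = 3 each). Leukocyte and macrophage genes were abundant in every library, with at least 6779 counts of Ptprc (CD45), 1585 of Fcgr1 (CD64) and 9849 of Csf1r, a macrophage growth factor receptor. The resident macrophage marker Lyve1 was at 0 counts in all 6 libraries, and Timd4 had at most 14. Of the 16 rows of the macrophage list 13 were tested and 1, C1qa, was called lower (unadjusted p below 0.05 in 9, and 5 called by DESeq2). The fit without a filter called 4 lower, C1qa, C1qb, Cd14 and Csf1r, the last with a log2 fold change of -0.74 in the filtered fit (adjusted p = 0.0916). These 4 markers of the sorted cells thus moved with the T and NK cell transcripts, and their part in the result was not tested. Others of the list did not. Of the 13 tested rows 10 had a negative log2 fold change, and the genes with most counts, Lyz2 and Cd68, were at -0.08 and 0.18, with Ptprc at 0.01. Of 12546 genes that passed a filter on low counts, 99 had an adjusted p below 0.05 in edgeR's quasi-likelihood test, 39 higher and 60 lower in Lgmn KO, which is 0.789% of the genes, or 0.478% for the lower ones alone.

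Most T and NK cell transcripts were detected in WT and were at or near 0 in Lgmn KO. Of the 36 genes, 16, 20 and 19 had a count in the Lgmn KO libraries and 31, 33 and 33 in the WT libraries. Summed over all 36 genes the counts were 1082, 1014 and 1393 in Lgmn KO and 1600, 1939 and 2408 in WT, or 57.0 ± 7.58 CPM against 89.4 ± 11.3 CPM (SD, n = 3 each). Most of that sum came from Cd28 and Lat, whose levels overlapped between the groups. Without these 2 genes, chosen after their counts were seen, the sums were 67, 112 and 84 counts in Lgmn KO against 331, 870 and 770 in WT, or 4.33 ± 1.25 CPM against 29.5 ± 12.3 CPM (SD, n = 3 each). The WT mean was thus 6.81 times the Lgmn KO mean, and between 5.57 and 8.36 times with any 1 library left out. Even in WT these 34 genes took only 0.00164% to 0.00402% of a library. WT replicate 1 was the lowest of the WT libraries in both sums.

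**Figure D1:**
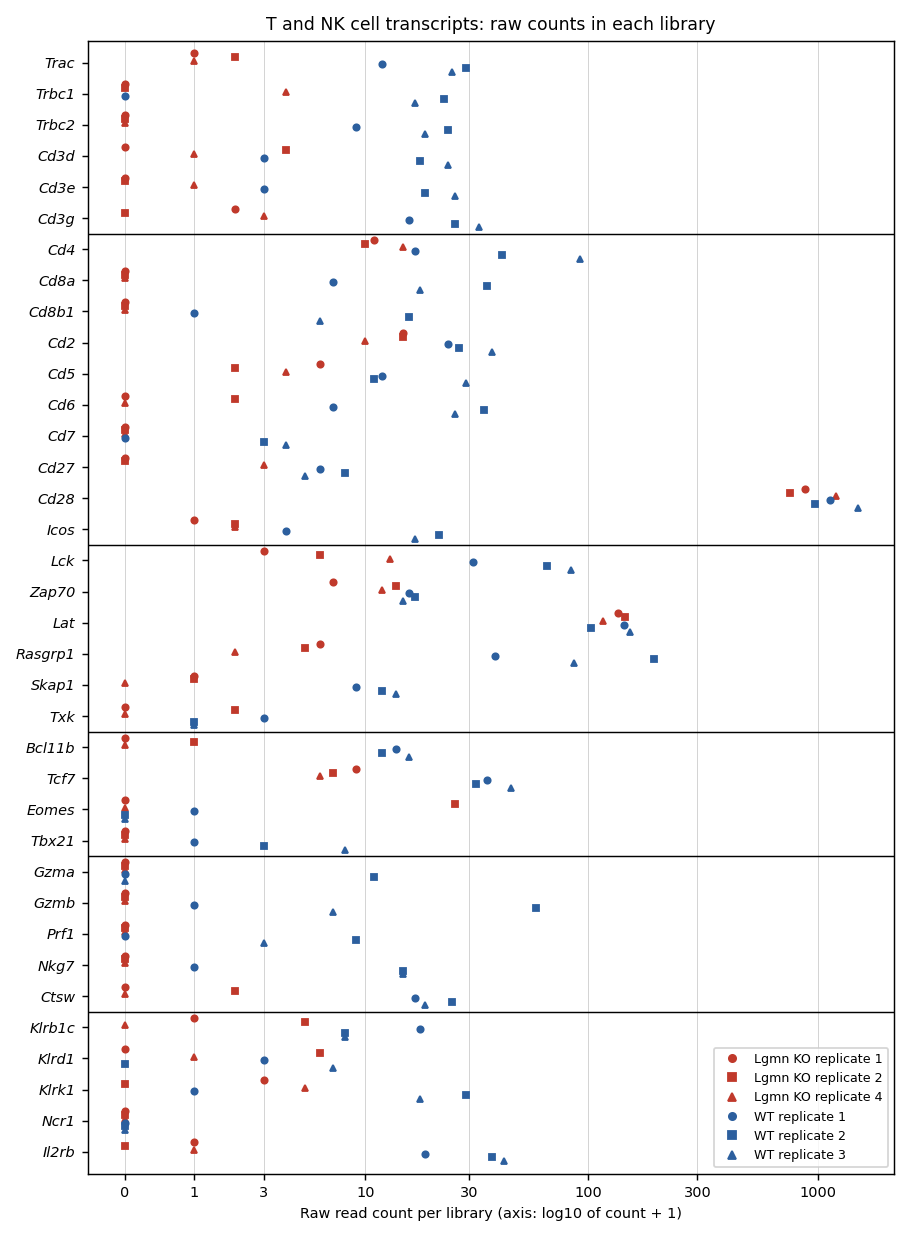
Raw read count of each of the 36 transcripts in each of the 6 libraries, on a log10 axis of count + 1, with Lgmn KO in red, WT in blue and lines between the functional groups. For most genes the Lgmn KO points lie left of the WT points, Cd28 and Lat stand far to the right in both genotypes, and Eomes has its high point in Lgmn KO replicate 2.

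Of the 36 genes, 23 had every Lgmn KO library below every WT library in CPM, whereas this held for 10.3% of the 18457 genes with any count, for 13.0% of the 12546 that passed the filter described below and for 12.3% of the 14968 genes with at least 10 counts. A further 12 overlapped, and Ncr1 had no count at all. In 9 genes with counts in WT all Lgmn KO libraries were at 0: Trbc2, Cd8a, Cd8b1, Cd7, Tbx21, Gzma, Gzmb, Prf1 and Nkg7. Of these, 8 had at least 10 counts over the WT libraries, which together with 0 in Lgmn KO held for 0.385% of the genes with any count. A count of 0 in all 3 Lgmn KO libraries allows a level of up to 0.0491 CPM over the group (3 counts, counting error only), and folds against such a group are given as lower bounds against those 3 counts. Such a fold uses the summed WT counts. It leaves out the spread between WT libraries and need not hold for each of them.

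Only 14 of the 36 genes passed the filter on low counts, and 10 of these had fewer than 10 counts in at least 1 Lgmn KO library, so that WT carried them over the filter. With Benjamini-Hochberg adjustment over all 12546 genes, edgeR's quasi-likelihood test called 5 of the 14, where 0.478% of all genes tested were called lower. The 5 genes were Il2rb, Tcf7, Rasgrp1, Trac and Bcl11b, all lower in Lgmn KO. Since those genes passed the filter through the group in which they were high, the unfiltered fit is given beside it. It tested 35 of the 36 genes and called 11, all lower, where 1.25% of the 18457 genes with a count were called lower. Its 11 genes were the same 5 together with Lck, Cd3g and Ctsw, and with Cd8a, Cd6 and Trbc2, which the filter had removed. Of the 36 genes 18 carry, in the authors' deposited table, the flag for lower expression in Lgmn KO and 0 the flag for higher, where 1.96% of the 17476 genes with a p-value there carry the flag for lower.

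Whether a gene passed the threshold depended on single libraries, while the fold changes of the 5 called genes kept their direction in every fit that left out 1 library. No call was left among these genes when 1 Lgmn KO library was dropped: 0 of 24 tested genes passed in edgeR's quasi-likelihood test, with 18, 19 and 19 at an unadjusted p below 0.05, where 0.0934%, 0.0234% and 0.109% of all genes were called lower. Dropping WT replicate 2 or 3 left 0 of 14 in that test, with 11 and 9 at an unadjusted p below 0.05, where 0.181% and 0.0549% of all genes were called lower. Without WT replicate 1 the test called 16 of 24, against 3.67% of all genes. Over all libraries DESeq2 called 9 of the 14 (4.15% of all genes lower), unscaled library sizes gave 7 (0.941%), RLE factors 4 (0.407%) and limma-voom 2 (0.199%). A block on the replicate numbers left 0 in the edgeR test, with 8 at an unadjusted p below 0.05, where 0.239% of all genes were called lower. Replicate 3 occurs only in WT and replicate 4 only in Lgmn KO. The block therefore compares the genotypes within replicates 1 and 2 alone, too few libraries for its 0 calls to decide anything.

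**Figure D2:**
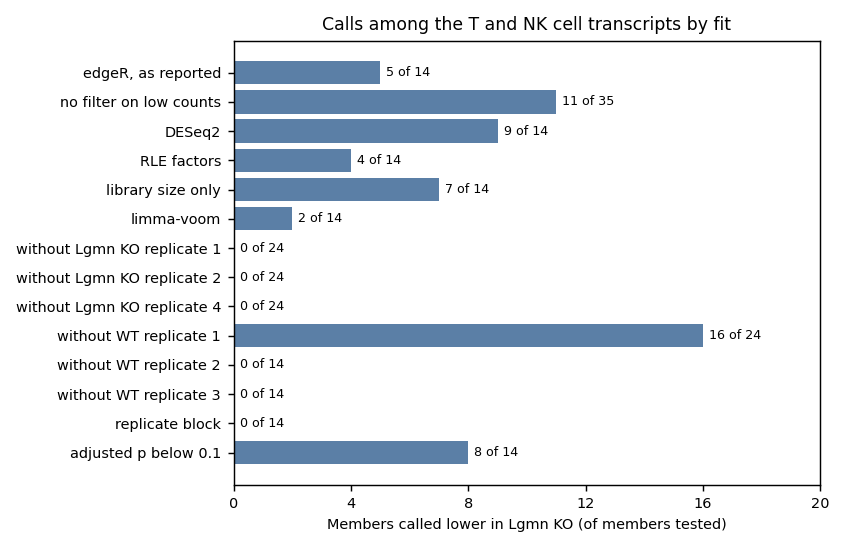
Number of T and NK cell transcripts called lower in Lgmn KO (bar length) in each fit, with the number tested written beside each bar. The reported fit called 5 of 14, and the 5 fits without a Lgmn KO library or without WT replicate 2 or 3 called 0.

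The 250 bases before the transcription start show how a few of these genes differ in sequence at the promoter. They are shown for Cd3g and Cd3d, neighbours transcribed away from each other, for the receptor kinase gene Lck and for the granzyme gene Gzmb, as genes low in Lgmn KO from 3 functional groups. The sequences are RefSeq's (GRCm38.p6), read 5′ to 3′ on the gene's strand, at chr9:44980432-44980681 (minus strand) for Cd3g, chr9:44981536-44981785 (plus) for Cd3d, chr4:129573642-129573891 (minus) for Lck and chr14:56262335-56262584 (minus) for Gzmb. Capitals mark exact matches to a RUNX motif (TGTGGT, or ACCACA on the other strand) or an ETS motif (AGGAAG, or CTTCCT), bound by 2 families of transcription factors active in lymphocytes and in other blood cells, and no 2 matches overlap in these 4 windows.
Cd3g: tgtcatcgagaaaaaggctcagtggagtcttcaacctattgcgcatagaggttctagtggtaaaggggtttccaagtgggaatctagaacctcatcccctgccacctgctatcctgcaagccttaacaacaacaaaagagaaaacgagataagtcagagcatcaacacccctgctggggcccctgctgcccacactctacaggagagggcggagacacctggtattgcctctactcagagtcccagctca
Cd3d: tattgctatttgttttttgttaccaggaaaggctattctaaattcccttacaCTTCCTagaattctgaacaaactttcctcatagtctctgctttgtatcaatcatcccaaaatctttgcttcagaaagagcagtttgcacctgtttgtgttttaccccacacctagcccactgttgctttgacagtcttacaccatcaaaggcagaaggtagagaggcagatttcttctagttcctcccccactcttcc
Lck: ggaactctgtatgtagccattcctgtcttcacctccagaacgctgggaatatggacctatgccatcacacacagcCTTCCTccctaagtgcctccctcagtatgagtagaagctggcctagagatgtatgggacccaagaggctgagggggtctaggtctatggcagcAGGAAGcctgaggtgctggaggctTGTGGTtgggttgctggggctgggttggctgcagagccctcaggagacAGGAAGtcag
Gzmb: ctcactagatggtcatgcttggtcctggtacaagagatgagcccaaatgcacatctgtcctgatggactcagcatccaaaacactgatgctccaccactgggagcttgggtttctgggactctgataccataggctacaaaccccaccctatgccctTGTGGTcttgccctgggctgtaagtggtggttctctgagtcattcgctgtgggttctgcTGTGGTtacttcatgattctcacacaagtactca
The printed Lck window held 1 RUNX and 3 ETS matches, that of Gzmb 2 RUNX matches, that of Cd3d 1 ETS match and that of Cd3g neither set of letters. The window of another Lck start, at chr4:129558373-129558622 (minus strand) and not printed, held 0 RUNX matches and 1 ETS match. RefSeq windows were found for 22 of the 36 genes (28 windows, since some genes have several starts). A RUNX match stood in 11 of the 28 (39.3%) and in 14.0% of 32851 windows of all genes, and an ETS match in 13 (46.4%) and 29.5%. Genes with several starts count more than once here, and the 2 windows of Ncr1 overlap and hold the same RUNX matches. The windows also cover genes that were not lower in Lgmn KO, such as Lat and Ncr1. A match is a description of the letters and does not show that a factor binds there.

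The T cell receptor chains and the CD3 subunits were close to 0 in every Lgmn KO library. Trac, which encodes the constant part of the alpha chain, had 1, 2 and 1 counts in Lgmn KO against 12, 29 and 25 in WT. It fell by 3.80 on the log2 scale (standard error 0.60, adjusted p = 0.0465, edgeR quasi-likelihood test), and without any 1 library other than WT replicate 1 the log2 fold change lay between -4.21 and -3.53 and the adjusted p between 0.112 and 0.156. Trac (ENSMUSG00000076928) lies at chr14:54220521-54224206 on the plus strand of GRCm38. The constant genes of the beta chain had 0, 0 and 4 (Trbc1) and 0, 0 and 0 counts (Trbc2) in Lgmn KO. In WT they had 0, 23 and 17 counts (Trbc1) and 9, 24 and 19 (Trbc2), so that Trbc2 was at least 16.0-fold lower in Lgmn KO than over the summed WT libraries. Over 677 aligned bases the annotated transcripts of these 2 genes are 87.1% identical, and reads from the shared parts may have been split between them.

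Cd3g, one of the CD3 subunits, had 2, 0 and 3 counts in Lgmn KO against 16, 26 and 33 in WT. Its log2 fold change was -3.69 (standard error 0.66, adjusted p = 0.0555, edgeR quasi-likelihood test), just outside the threshold. Cd3e had 0, 0 and 1 counts against 3, 19 and 26, a ratio of WT to Lgmn KO, relative to library size, of 44.3 with a 95% interval of 7.58 to 1790 that covers counting error only. Cd3d had 0, 4 and 1 counts against 3, 18 and 24. WT replicate 1 was lowest of the WT libraries in all 6 genes of the group, and in Cd3d it overlapped with Lgmn KO replicate 2. Summed over the 6 genes the group stood at 0.309 ± 0.162 CPM in Lgmn KO, against 4.84 ± 2.39 CPM in WT (SD, n = 3 each), and the 2 sets of libraries did not overlap.

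**Figure D3:**
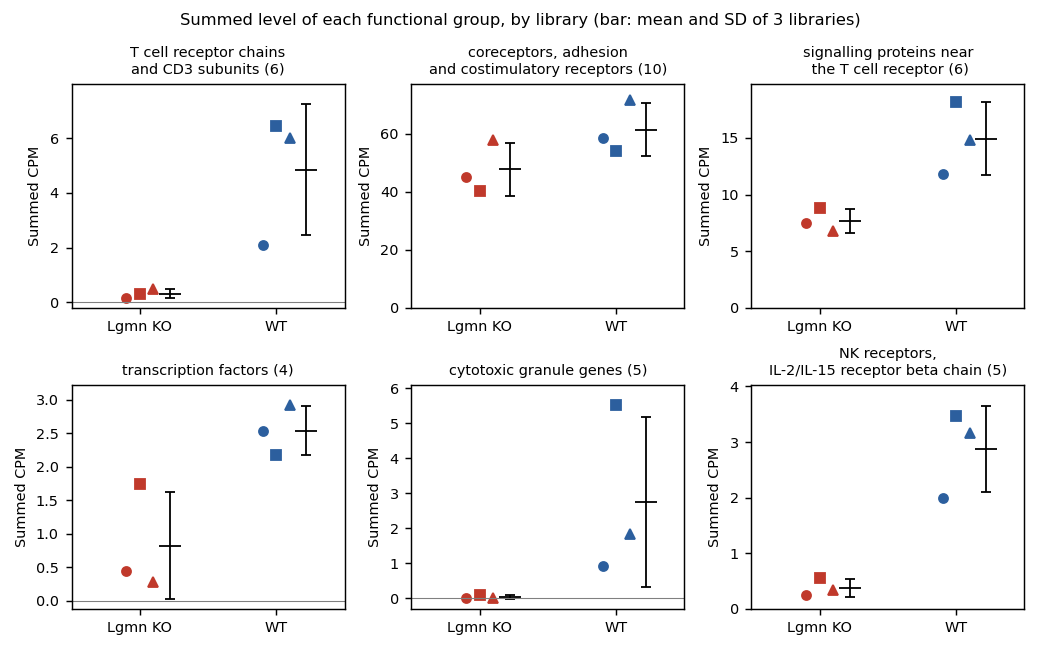
Summed CPM of each functional group in each library (points, same symbols as in the plot of raw counts by gene) with the mean and SD of 3 libraries (black bars). The receptor chains, the signalling proteins, the transcription factors, the granule genes and the NK receptors do not overlap between genotypes, while the coreceptor group, in which Cd28 makes up most of the sum, does.

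Among the coreceptors, Cd4, which binds MHC class II and is also expressed by some macrophages and dendritic cells, kept counts in Lgmn KO. It had 11, 10 and 15 counts there and 17, 42 and 92 in WT, with a log2 fold change of -1.90 (standard error 0.56, adjusted p = 0.150, edgeR quasi-likelihood test). The 2 chains of the MHC class I coreceptor were both at 0 in Lgmn KO. Cd8a had 7, 36 and 18 counts in WT and Cd8b1 1, 16 and 6. Against the summed WT counts Cd8a was at least 18.8-fold lower in Lgmn KO and Cd8b1 at least 7.08-fold. The fold of Cd8b1 cannot be shown for WT replicate 1 alone, which had 1 count. In the fit without a filter Cd8a passed (adjusted p = 0.0401) and Cd8b1 did not (adjusted p = 0.179).

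Cd6, a scavenger receptor family member that tunes T cell receptor signals, had 0, 2 and 0 counts in Lgmn KO against 7, 35 and 26 in WT. Its relative Cd5 had 6, 2 and 4 counts against 12, 11 and 29 (log2 fold change -1.95, standard error 0.58, adjusted p = 0.150, edgeR quasi-likelihood test). The adhesion receptor gene Cd2 had 15, 15 and 10 counts against 24, 27 and 38 (log2 fold change -1.02, standard error 0.33, adjusted p = 0.181). Both kept every Lgmn KO library below every WT library, and neither passed the test. Icos, a costimulatory receptor of activated T cells, had 1, 2 and 2 counts against 4, 22 and 17. Cd27, a TNF receptor family member, had 0, 0 and 3 against 6, 8 and 5, and Cd7 had 0 counts in Lgmn KO against 0, 3 and 4.

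Cd28, the main costimulatory receptor of T cells, stood apart from all other members. It had 880, 757 and 1193 counts in Lgmn KO against 1125, 966 and 1485 in WT, its groups overlapped, and its log2 fold change was -0.22 (standard error 0.17, adjusted p = 0.548, edgeR quasi-likelihood test). Per gene length, in the deposited FPKM, Cd28 was at 7.96 ± 1.27 in WT, where Trac was at 0.951 ± 0.359 and Cd3e at 0.489 ± 0.341 (SD, n = 3 each). In Lgmn KO it was at 6.75 ± 1.29 FPKM, where Trac was at 0.0634 ± 0.0302 and Cd3e at 0.0108 ± 0.0187. Most Cd28 counts therefore did not move with those of the receptor genes. No exon of another annotated gene overlaps Cd28 in GENCODE M21.

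Of the signalling proteins, Rasgrp1, an exchange factor that activates Ras below the T cell receptor, fell in Lgmn KO. It had 6, 5 and 2 counts there and 39, 194 and 87 in WT, which spread over a wide range in WT and left a clear gap to Lgmn KO. The log2 fold change was -4.46 (standard error 0.73, adjusted p = 0.0486, edgeR quasi-likelihood test), and without any 1 library other than WT replicate 1 it lay between -4.76 and -3.66, with an adjusted p between 0.071 and 0.18. Rasgrp1 (ENSMUSG00000027347) lies at chr2:117279993-117343001 on the minus strand. Lck had 3, 6 and 13 counts in Lgmn KO against 31, 66 and 84 in WT (log2 fold change -2.89, standard error 0.53, adjusted p = 0.0575), outside the threshold in this fit and inside it in the fit without a filter (adjusted p = 0.0254). The adaptor gene Skap1 had 1, 1 and 0 counts against 9, 12 and 14, with little spread in WT.

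Zap70 and Lat did not follow Lck. Zap70, the kinase recruited to the phosphorylated CD3 subunits, had 7, 14 and 12 counts in Lgmn KO against 16, 17 and 15 in WT (log2 fold change -0.42, standard error 0.39, adjusted p = 0.640, edgeR quasi-likelihood test). Lat had 135, 145 and 116 counts in Lgmn KO against 144, 103 and 153 in WT (log2 fold change 0.11, standard error 0.20, adjusted p = 0.838). In CPM the libraries of the 2 genotypes overlapped in both genes, although the raw counts of Zap70 did not. Lat, an adaptor of mast cells and platelets as well as T cells, had the second highest level per gene length among the members, at 1.18 ± 0.236 FPKM in WT and 1.26 ± 0.197 FPKM in Lgmn KO (SD, n = 3 each). Of the mast cell and platelet markers, Mcpt4, Ms4a2 and Gp9 were at 0 in all libraries, while Kit had 16 to 54 counts, Gata2 1 to 10, Pf4 900 to 1837 and Itga2b 2 to 10. Txk, a kinase of the Tec family, had at most 3 counts in any library.

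**Figure D4:**
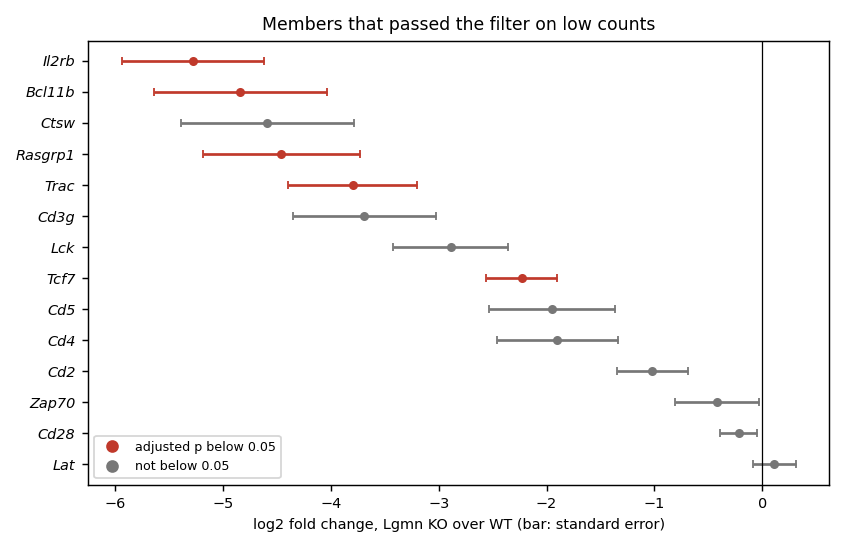
Fitted log2 fold change (points, negative where Lgmn KO is lower) with its standard error (bars) for the 14 members that passed the filter on low counts, red where the adjusted p was below 0.05. Il2rb, Bcl11b, Rasgrp1, Trac and Tcf7 are called between -5.28 and -2.23, while Zap70, Cd28 and Lat lie close to 0.

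Of the 4 transcription factors, the 2 that are expressed across the T lineage fell. Tcf7, which encodes TCF1, had 9, 7 and 6 counts in Lgmn KO against 36, 32 and 46 in WT, with little spread in either group. Its level was 0.362 ± 0.0807 CPM in Lgmn KO, against 1.72 ± 0.221 CPM in WT (SD, n = 3 each). The fitted log2 fold change was -2.23 (standard error 0.33, adjusted p = 0.0397, edgeR quasi-likelihood test). Bcl11b, needed for T lineage commitment, had 0, 1 and 0 counts against 14, 12 and 16 (log2 fold change -4.84, standard error 0.80, adjusted p = 0.0489). WT replicate 1 was not low in these 2 genes, unlike in the receptor genes. Without any 1 library other than WT replicate 1, the log2 fold change of Tcf7 lay between -2.40 and -2.09 and its adjusted p between 0.0944 and 0.156. For Bcl11b these were -6.78 to -4.37 and 0.108 to 0.161. Tcf7 (ENSMUSG00000000782) lies at chr11:52252371-52283014 and Bcl11b (ENSMUSG00000048251) at chr12:107910403-108003602, both on the minus strand.

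The 2 T-box factors of cytotoxic lymphocytes were rarer. Tbx21, which encodes T-bet, had 0 counts in Lgmn KO against 1, 3 and 8 in WT. Eomes had 26 counts in Lgmn KO replicate 2, 0 in the other Lgmn KO libraries and 1, 0 and 0 in WT, so 1 library holds nearly all of its reads. In that library Klrd1 had 6 counts, Klrb1c 5 and Cd3d 4, the highest of the Lgmn KO libraries for each. Klrk1, Il2rb and Ncr1 were at 0 there. Of the granule genes Ctsw had 2 counts in that library, and Prf1, Gzma, Gzmb and Nkg7 were at 0. Gzmm, which is outside the set, had 31 counts there, the most of any library.

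The 5 cytotoxic granule genes of the set were nearly absent from Lgmn KO, with 0, 2 and 0 counts summed over them against 19, 119 and 44 in WT. The 2 counts belong to Ctsw, a cathepsin of cytotoxic lymphocytes, which had 17, 25 and 19 counts in WT. Its log2 fold change was -4.59 (standard error 0.80, adjusted p = 0.0539, edgeR quasi-likelihood test), and the fit without a filter gave an adjusted p of 0.0357. Gzmb, a granzyme that activates caspases in target cells and whose promoter is printed above, had 1, 59 and 7 counts in WT. Nkg7, a granule membrane protein, had 1, 15 and 15. Against the summed WT counts Gzmb was at least 20.6-fold and Nkg7 at least 9.54-fold lower in Lgmn KO, and neither passed in the fit without a filter (adjusted p = 0.147 and 0.130). Neither fold can be shown for WT replicate 1 alone, which had 1 count of each gene. Gzma had 11 counts in WT replicate 2 and 0 elsewhere, and the pore-forming perforin gene Prf1 had 0, 9 and 3 counts in WT. WT replicate 2 held most of the Gzma and Gzmb counts, whereas Ctsw was about even over the WT libraries. Without WT replicate 2 the remaining WT counts of Gzmb were 1 and 7, and those of Gzma 0 and 0. Gzmm, a granzyme gene outside the set, did not follow these genes. It had 13, 31 and 7 counts in Lgmn KO against 17, 12 and 13 in WT (log2 fold change 0.40, standard error 0.58, adjusted p = 0.78, edgeR quasi-likelihood test).

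Il2rb, the shared beta chain of the IL-2 and IL-15 receptors on NK cells and T cells, had the largest fitted fall of the tested members. It had 1, 0 and 1 counts in Lgmn KO against 19, 38 and 43 in WT, a wide gap in which WT replicate 1 was the lowest of its group. The log2 fold change was -5.28 (standard error 0.66, adjusted p = 0.0267, edgeR quasi-likelihood test). Relative to library size the ratio of WT to Lgmn KO was 46.2, with a 95% interval of 12.4 to 386 for counting error. Without any 1 library other than WT replicate 1 its log2 fold change stayed between -5.62 and -4.80, while the adjusted p lay between 0.071 and 0.124. Il2rb (ENSMUSG00000068227) lies at chr15:78480553-78495066 on the minus strand.

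Receptors more specific to NK cells were sparse in both genotypes. Klrb1c, which encodes NK1.1, had 1, 5 and 0 counts in Lgmn KO against 18, 8 and 8 in WT, and was the 1 member of the group with most counts in WT replicate 1. The activating receptor gene Klrk1 (NKG2D) had 3, 0 and 5 counts against 1, 29 and 18, and Klrd1 (CD94) 0, 6 and 1 against 3, 0 and 7. The libraries of the 2 genotypes overlapped in Klrk1 and Klrd1 and did not in Klrb1c. Ncr1, which encodes the NK cell receptor NKp46, had 0 counts in all 6 libraries. Exons of Klrb1c share 13.9% of their bases with another annotated gene, and the strand setting of the counting is unknown here.

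Variable gene segments, joined to the constant genes in mature T cells, were looked at after the counts were seen. Over 35 listed beta variable segments the counts summed to 0, 2 and 0 in Lgmn KO and 12, 19 and 48 in WT. The beta joining segments had 3, 0 and 0 counts against 3, 5 and 9. Over 14 gamma segments and constant genes they summed to 0 in every Lgmn KO library and to 0, 9 and 5 in WT. The 128 listed alpha variable segments went another way, with 103, 98 and 108 counts in Lgmn KO against 65, 67 and 124 in WT. Trav13-4-dv7 alone gave 45, 43 and 48 of the former and 24, 23 and 48 of the latter. Only 1 count in all fell on the 60 alpha joining segments. The alpha variable counts therefore did not move with Trac.

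Other genes of T cell receptor signalling were taken from a list of 37. Of the 20 that passed the filter, 0 were called in either direction by edgeR's quasi-likelihood fit (unadjusted p below 0.05 in 7, and 3 called by DESeq2), and their median log2 fold change was -0.11, against 0.00 over all 12546 genes. The list also holds genes of all leukocytes, such as Ptprc and Ptpn6. Among its T cell genes Cd247, the receptor's zeta chain, had 0, 3 and 3 counts in Lgmn KO against 5, 28 and 11 in WT. Grap2, an adaptor that binds Lat and Slp-76, had the smallest p of the list, with 20, 12 and 29 counts against 48, 67 and 67 (log2 fold change -1.46, standard error 0.33, adjusted p = 0.0844). Cd247 and Themis, named after their counts were seen, were too low for the filter, and Themis had 0 counts in Lgmn KO against 2, 22 and 16 in WT.

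Of 37 further genes of NK and cytotoxic cells 36 were found, 14 were tested and 1 fell. That gene was Il18rap, a subunit of the IL-18 receptor, with 9, 6 and 6 counts in Lgmn KO against 37, 52 and 35 in WT (log2 fold change -2.43, standard error 0.37, adjusted p = 0.0410, edgeR quasi-likelihood test). The chemokine gene Ccl5 had 26, 22 and 49 counts against 109, 262 and 171 (log2 fold change -2.37, standard error 0.39, adjusted p = 0.0502). Of the genes for Ly49 receptors, Klra1, Klra4, Klra7 and Klra8 were at 0 in all libraries. Klra3 had 110, 113 and 172 counts against 102, 136 and 136, and Klra9 had 0, 2 and 4 against 4, 0 and 1. The median of the 14 was -0.28. Of 21 homing and cytokine receptor genes 12 were tested, and Il21r and Itgal fell while 0 rose, where 0.478% of all genes tested were called lower. Il21r, the IL-21 receptor, had 27, 13 and 23 counts against 109, 293 and 214 (log2 fold change -3.16, standard error 0.41, adjusted p = 0.0277). Itgal, an integrin subunit of leukocytes, had 754, 662 and 713 against 1428, 2345 and 2042 (log2 fold change -1.33, standard error 0.16, adjusted p = 0.0224). The other subunit of the IL-18 receptor, Il18r1, had 4, 4 and 2 counts against 16, 49 and 76 (log2 fold change -3.62, standard error 0.65, adjusted p = 0.0556). The median was -1.32 over the 12, a list that shares Itgal and Cx3cr1 with macrophages. Of 14 further transcription factors 9 were tested and 0 called by edgeR's quasi-likelihood fit (unadjusted p below 0.05 in 5, and 2 called by DESeq2), with a median of -0.42. Ets1 had 43, 48 and 48 counts against 82, 148 and 142 (log2 fold change -1.29, standard error 0.24, adjusted p = 0.0575). Il18rap, Il21r and Itgal were the 3 calls over these 4 lists, a number that was 0 without any 1 Lgmn KO library or WT replicate 3 (edgeR quasi-likelihood test), 2 without WT replicate 2, 16 without WT replicate 1 and 14 with DESeq2. Of all genes, 0.478% were called lower with all libraries, 0.181% without WT replicate 2, 3.67% without WT replicate 1 and 4.15% with DESeq2.

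Some markers of other cell types also differed between the genotypes, and their part in the result was not tested. Of all genes tested 0.478% were called lower, the share to set beside the calls in these lists. Of 15 dendritic cell markers 10 were tested and 1 was called, Zbtb46, with 6, 6 and 6 counts in Lgmn KO against 28, 30 and 30 in WT. The 12 of them below 10 CPM on average summed to 7.65 to 9.62 CPM in Lgmn KO and to 9.59 to 24.8 CPM in WT, with Siglech at 0 everywhere. Of 12 endothelial markers 6 were tested and 1 called, Flt1, and the 9 low ones summed to 2.61 to 3.36 CPM in Lgmn KO and 9.93 to 13.8 CPM in WT, with Emcn and Tek at 0. In WT, but not in Lgmn KO, Flt1 made up most of that sum, with mean levels of 1.19 CPM in Lgmn KO against 8.31 in WT. Pecam1 had 3, 8 and 3 counts against 17, 38 and 35 (log2 fold change -2.52, standard error 0.53, adjusted p = 0.0769, edgeR quasi-likelihood test). Esam had 13, 8 and 16 against 29, 28 and 25 (log2 fold change -1.04, standard error 0.35, adjusted p = 0.188). Egfl7 and Cldn5 overlapped between the genotypes, and Tie1 went the other way, with 6, 8 and 6 counts against 0, 1 and 3. All 12 endothelial markers together, which include abundant genes, summed to 797 to 920 CPM and 662 to 796 CPM. The 7 low fibroblast markers of 10 summed to 6.71 to 16.2 CPM and 20.8 to 28.7 CPM, with 0 of 6 tested genes called by edgeR's quasi-likelihood fit (unadjusted p below 0.05 in 5, and 2 called by DESeq2). Thy1, a fibroblast marker that mouse T cells also express, had 2, 12 and 9 counts against 37, 80 and 87.

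B cell and heart muscle markers overlapped between the genotypes, and 0 of 5 tested neutrophil markers were called by the edgeR quasi-likelihood test (unadjusted p below 0.05 in 1, and 1 called by DESeq2). The 16 low B and plasma cell markers of 17 summed to 12.6 to 17.5 CPM in Lgmn KO and 9.69 to 29.7 CPM in WT, with 0 of 7 tested genes called by the edgeR quasi-likelihood test, 0 by DESeq2 and 0 at an unadjusted p below 0.05. Cd79a, part of the B cell receptor, had 15, 7 and 19 counts against 8, 16 and 31. The 9 low neutrophil markers of 11 summed to 9.57 to 11.1 CPM and 7.69 to 8.91 CPM, but all 11 to 93.3 to 121 CPM and 162 to 274 CPM. The 10 heart muscle markers summed to 3.65 to 4.91 CPM and 3.96 to 4.96 CPM. The 9 mast cell and basophil markers summed to 1.68 to 2.45 CPM and 2.53 to 3.80 CPM. Of 10 monocyte markers 9 were tested and 0 called by edgeR's quasi-likelihood fit (unadjusted p below 0.05 in 5, and 2 called by DESeq2), and all 10 together, mostly Chil3 and F10, summed to 661 to 710 CPM and 640 to 958 CPM. Ccr2, a chemokine receptor of monocytes, had 130, 76 and 92 counts against 234, 1452 and 854 (log2 fold change -2.96, standard error 0.60, adjusted p = 0.0727). Ly6c2 was at -1.69, Vcan at -1.02 and Hp at -0.88 on the log2 scale, and Ccr2 and Hp were called lower in the fit without a filter. Of 12 markers of gamma-delta T and innate lymphoid cells that were found, 2 were tested and 0 called by the edgeR quasi-likelihood test (unadjusted p below 0.05 in 1, and 1 called by DESeq2), and Il5 and Il13 were at 0 everywhere. The 11 low ones summed to 0.613 to 0.790 CPM and 1.42 to 3.70 CPM. Of 9 red cell and platelet markers 2 were tested and 0 called in that test (unadjusted p below 0.05 in 1, and 1 called by DESeq2), and all 9 summed to 47.8 to 51.7 CPM and 67.2 to 86.6 CPM. Nearly all of that sum was Pf4 (log2 fold change -0.60, standard error 0.11, adjusted p = 0.0555), which was called lower in the fit without a filter.

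**Figure D5:**
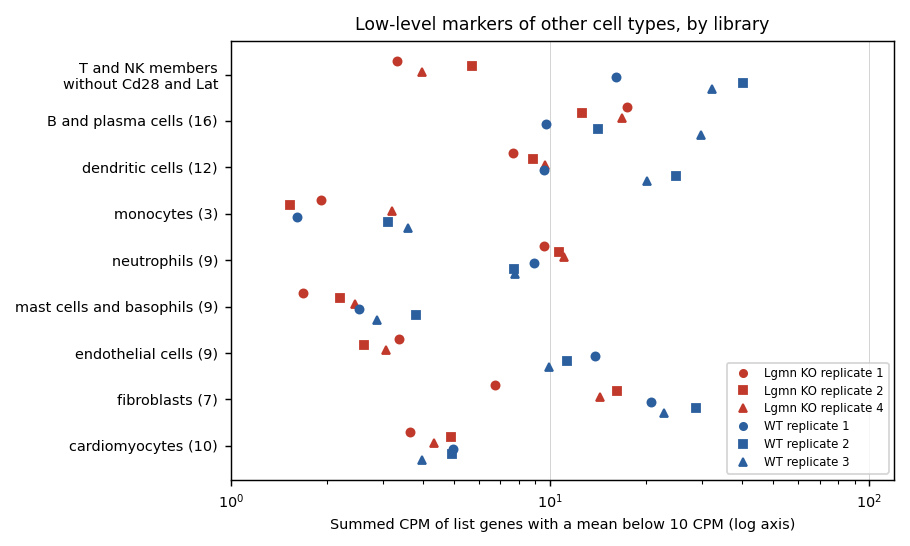
Summed CPM per library (log axis) of the T and NK cell transcripts without Cd28 and Lat and of the low-level markers (mean below 10 CPM, number in brackets) of 8 other cell types, with Lgmn KO in red and WT in blue. The genotypes are apart, with Lgmn KO lower, for the T and NK sum, the fibroblast sum, the mast cell and basophil sum and the endothelial sum, which is mostly Flt1 in WT. They are also apart, with Lgmn KO higher, for the neutrophil sum. They overlap for B cells, dendritic cells, monocytes and heart muscle cells.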

How the data were processed

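Messenger RNA of sorted cardiac macrophages was measured in 6 libraries, grouped by title into 3 Lgmn KO and 3 WT. Per the submitters' processing notes HISAT2, TopHat2 2.0.9 and TopHat were used and the build was hg38, a human one. The positions are those of mouse: 98.8% of the 34745 gene IDs are in GENCODE M21 (GRCm38), 80.8% of these at the same position, and 28 of the 36 members, so the table's own coordinates were taken for GRCm38. Not given in the sources used here are the counting tool, whether it used strand, and which test the authors ran. Per the file headers, the deposited values are a count and an FPKM value per gene and library, and the authors' group FPKM, log2 fold change, p-value and q-value. The counts are whole numbers with different totals. The deposited FPKM equals count over a gene length and the column total in 100% of 9082 well-counted genes (lengths within 0.5 bases), and was used only to compare genes. The authors' log2 values and p-values were not mixed with those computed here.

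Counts were filtered with filterByExpr, scaled with TMM and fitted with edgeR 4.0.16 (glmQLFit, glmQLFTest; R 4.3.3), Lgmn KO against WT, and an adjusted p below 0.05 over all 12546 genes made a call. Standard errors come from the F statistic, and counting intervals are exact binomial at 95%. Depth was 19546253 to 24086976 counts per library. Between libraries of 1 group, chi-square over its degrees of freedom was 14.0 to 42.7, where sampling noise alone gives a value near 1, so each was counted once. Alternatives were DESeq2 1.42.0, limma-voom (limma 3.58.1), RLE factors, library size only, no filter, a threshold of 0.1, the replicate numbers as a block, and each library left out. The procedure was tested on simulated counts for genes that pass the filter, with the same spread setting for every gene. That test does not cover genes under the filter or genes with a larger spread between libraries.

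The members and the 15 other lists (233 of 237 symbols found) were chosen with earlier results of these data known, from the proposed set and textbook knowledge. Every member is named, with its counts where it had at least 10 in all, and from each other list at most the 3 tested genes of smallest p and any called one. Lyve1, Timd4, Cd247, Themis, Cd79a, Klra3, Klra9, Gzmm, Ly6c2, Chil3, F10, Cd14, Cd68, Lyz2, Gata2, Itga2b, Egfl7, Cldn5, Tie1, Esam, Cx3cr1 and list members named for a count of 0 were named after their values were seen, as were Ptprc, Fcgr1, Csf1r, Ptpn6, Mrc1, Adgre1, Mertk and Itgam. The promoter windows are the 250 bases before RefSeq starts.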

Additional observations from a re-analysis of the deposited data

How the results depend on the processing

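Over all genes 99 were called, against 318 without a filter on low counts, 804 with DESeq2, 165 with library size only, 46 with limma-voom and 503 at a threshold of 0.1. Of the T and NK cell transcripts 5 were called, against 11 without a filter, 9 with DESeq2, 2 with limma-voom and 8 at a threshold of 0.1. Of the other lymphocyte pathway genes 3 were called, against 8, 14, 1 and 10 in the same order, and 7 with library size only. Leaving out 1 library gave 6 to 639 genes, 0 to 16 T and NK cell transcripts and 0 to 16 pathway genes, and the cause was not tested, although each such fit has fewer samples. Replicate numbers 1 and 2 occur in both groups, and nothing in the labels ties them to a shared animal or batch. With the replicate number as a block, which compares the genotypes within these 2 numbers alone, the calls were 39, 0 and 0 (edgeR quasi-likelihood test). In that fit 8 T and NK cell transcripts had an unadjusted p below 0.05. The deviations of same-numbered libraries from their group means correlated at 0.122 and 0.076. The ratio of Lgmn KO to WT in the summed T and NK cell transcripts was 0.637, with 0.589 to 0.680 when 1 library was left out. It was 0.452 on the summed deposited FPKM, 0.305 without Cd28 and 0.147 without Cd28 and Lat, and the direction was the same throughout. Of the 14 tested members Lat alone changed sign, to -0.04 without WT replicate 2, against 0.22 without WT replicate 1 and 0.28 with the replicate block. At these depths most members have under 50 counts per library, and differences in genes such as Txk, Cd7 or Klrd1 were not detectable.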
